A study of Homo sapiens with 4 samples.

Results

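The zinc finger genes of chromosome 19q13.1 were described in Huh7 cells with and without a METTL16 guide. They are 35 genes chosen by name, as zinc finger genes of a cluster that lies at about 34 to 38 Mb of GRCh38, and 34 of them were found among the 18806 gene symbols of the deposited table. ZNF345 was not analysed here. Of the 34 genes, 31 had a mean of at least 1 TPM over all libraries and entered the test among 11971 genes, while ZNF793, ZNF540 and ZNF781 lay under it.

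Huh7 is an established hepatocellular carcinoma line. Cells of both groups came from 1 clone that stably expressed Cas9, and they were infected with a lentiviral guide and selected with hygromycin B. The control group carried the non-targeting guide sgNS (2 libraries, labelled WT) and the other group a guide against METTL16 (sgMETTL16, 2 libraries, labelled METTL16 knockdown and called METTL16 KO in the study). The labels number the libraries of a group, and the study calls the 2 replicates of its sequenced RNA biological. The sample titles do not say whether the numbers stand for replicates or for guides, and the study names distinct METTL16 guides in the same form. The numbers were read here as replicates. Whether these replicates came from separate transductions or cultures is not given in the sources used here. The p-values therefore measure only the spread between these libraries, which may be partly technical. The values are TPM, the share of a gene among all transcripts of a library after correction for transcript length, so that levels of different genes can be compared. Read counts cannot be had from TPM, and the depth of the libraries is therefore unknown.

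Zinc finger genes of this kind encode proteins with a row of C2H2 fingers, each of which contacts a few bases of DNA. In most of them a KRAB box precedes the fingers and recruits TRIM28 (KAP1), a scaffold that brings the histone methyltransferase SETDB1 and HP1 proteins and thereby silences the bound DNA, which is often a transposable element. The genes arose by repeated tandem duplication, most of all on chromosome 19, and their own bodies often carry the same silencing mark, H3K9me3, in which ZNF274 is known to take part. ZNF146 and ZNF260 differ from most members, as their proteins consist of zinc fingers without a KRAB box.

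METTL16, the m6A methyltransferase that the guide targets, had 26.3 and 25.1 TPM under sgNS and 17.6 and 18.8 TPM upon METTL16 KO. The groups did not overlap, and the log2 fold change in limma was -0.50 with a standard error of 0.062 (adjusted p 2.4e-05). All 10 hepatoma markers looked for, among them ALB, AFP and HNF4A, were at 159.96 TPM or more in every library. They were not level, as their sum was 18671 and 18753 TPM under sgNS and 32424 and 31971 TPM upon METTL16 KO. APOB and TF were lower upon METTL16 KO and the others higher. AFP rose most, from 1737 and 1793 to 10387 and 10197 TPM. The 8 markers of immune, endothelial and stromal cells summed to between 8.55 and 14.6 TPM. Of these 8 markers, the endothelial CDH5 and the stromal DCN were listed at 0.05 TPM or less in all libraries. The stromal collagen COL1A1 had 0.10 and 0.14 TPM under sgNS and 0.80 and 0.48 TPM upon METTL16 KO (limma with all genes above 0, adjusted p 0.0070), COL3A1 lay between 0.65 and 1.05 TPM, and the immune markers PTPRC and CD3E at 0.48 TPM or less. CD68, a macrophage marker also made by other cells, rose from 3.40 and 2.72 to 8.86 and 8.57 TPM, and the endothelial marker PECAM1 fell from 5.14 and 4.74 to 3.09 and 2.70 TPM. The part of these markers in the results was not tested. In bulk RNA a change in the number of cells and in the RNA per cell cannot be told apart.

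The promoter sequences of the members on which the results turn are shown first, since these genes lie close together and several share a promoter region. RefSeq promoter windows on GRCh38.p14, from 250 bases before to 50 bases after the start of the gene, were found for 30 of the 34 members, and ZNF30, ZFP14, ZNF571 and ZNF781 had no entry. Each sequence runs 5′ to 3′ on the strand of its gene. In ZNF420, ZNF585B and ZNF570 the RefSeq start used here lies inside the longer gene of GENCODE, which starts further upstream. The same holds, by fewer bases, in ZNF461, ZNF585A and ZNF599. Capitals mark the letters CCGGAAGT, the core bound by factors of the ETS family, and the letters TTCCCAGA, which lie within an element known to be recognised by ZNF143, each on either strand. ZNF570, ZNF585A, ZNF829, ZNF461 and ZNF585B had the largest rises, ZNF420 holds TTCCCAGA at 2 positions, and ZNF599 did not rise.
ZNF461 (chr19:36666788-36667087, minus strand): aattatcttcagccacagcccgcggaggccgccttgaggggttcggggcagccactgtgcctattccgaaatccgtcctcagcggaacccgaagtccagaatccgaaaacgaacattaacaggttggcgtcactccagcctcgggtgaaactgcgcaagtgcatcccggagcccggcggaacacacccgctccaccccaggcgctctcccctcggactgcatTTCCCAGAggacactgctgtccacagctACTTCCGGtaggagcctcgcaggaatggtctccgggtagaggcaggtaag
ZNF829 (chr19:36916242-36916541, minus strand): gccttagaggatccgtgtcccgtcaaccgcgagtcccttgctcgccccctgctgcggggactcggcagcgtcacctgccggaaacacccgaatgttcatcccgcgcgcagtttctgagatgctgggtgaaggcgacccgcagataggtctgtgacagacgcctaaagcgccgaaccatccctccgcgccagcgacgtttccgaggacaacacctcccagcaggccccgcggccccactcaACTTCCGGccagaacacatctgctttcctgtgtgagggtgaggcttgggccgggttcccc
ZNF420 (chr19:37078183-37078482, plus strand): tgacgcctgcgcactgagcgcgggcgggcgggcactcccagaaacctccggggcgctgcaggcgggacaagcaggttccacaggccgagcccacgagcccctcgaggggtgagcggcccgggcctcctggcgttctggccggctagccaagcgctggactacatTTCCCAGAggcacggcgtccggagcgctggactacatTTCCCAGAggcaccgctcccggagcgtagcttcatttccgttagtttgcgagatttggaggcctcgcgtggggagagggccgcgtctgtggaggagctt
ZNF585A (chr19:37172646-37172945, minus strand): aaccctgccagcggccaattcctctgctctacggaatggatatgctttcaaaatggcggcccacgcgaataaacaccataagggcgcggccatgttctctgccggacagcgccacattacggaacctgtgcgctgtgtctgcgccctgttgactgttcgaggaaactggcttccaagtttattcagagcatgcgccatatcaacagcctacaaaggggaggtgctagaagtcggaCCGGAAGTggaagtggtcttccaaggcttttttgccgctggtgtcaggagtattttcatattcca
ZNF585B (chr19:37210487-37210786, minus strand): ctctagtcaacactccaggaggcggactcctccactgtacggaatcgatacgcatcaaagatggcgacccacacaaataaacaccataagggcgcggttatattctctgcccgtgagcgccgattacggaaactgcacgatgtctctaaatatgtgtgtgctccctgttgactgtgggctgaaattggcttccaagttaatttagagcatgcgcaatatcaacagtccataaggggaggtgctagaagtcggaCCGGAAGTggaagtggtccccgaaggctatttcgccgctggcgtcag
ZNF570 (chr19:37467522-37467821, plus strand): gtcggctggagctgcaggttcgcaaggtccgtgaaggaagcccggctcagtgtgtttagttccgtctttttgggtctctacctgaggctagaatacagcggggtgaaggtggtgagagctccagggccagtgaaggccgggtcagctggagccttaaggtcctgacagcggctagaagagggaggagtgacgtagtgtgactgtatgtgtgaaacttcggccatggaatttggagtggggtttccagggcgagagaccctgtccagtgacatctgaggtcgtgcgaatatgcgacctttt
ZNF599 (chr19:34773166-34773465, minus strand): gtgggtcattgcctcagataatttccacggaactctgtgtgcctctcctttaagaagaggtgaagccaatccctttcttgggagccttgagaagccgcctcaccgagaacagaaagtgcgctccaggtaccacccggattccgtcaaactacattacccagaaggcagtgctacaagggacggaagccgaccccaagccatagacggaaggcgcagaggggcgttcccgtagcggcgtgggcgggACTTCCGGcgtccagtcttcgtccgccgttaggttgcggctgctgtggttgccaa

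CCGGAAGT was found in 7 of 30 member promoters (23.3%), against 6.35% of the 14688 promoter windows of genes in the table and 4.14% of all 35116 windows. It was present in 19.1% of 188 promoters of other zinc finger genes of chromosome 19 and in 17.1% of 228 on other chromosomes, and the difference from the members was not tested. The 7 are those of ZNF599, ZNF461, ZNF567, ZNF829, ZNF568, ZNF585A and ZNF585B, but they do not hold 7 separate matches. ZNF461 and ZNF567 start 97 bases apart in RefSeq, on opposite strands, and share 1 match, and ZNF829 and ZNF568, 41 bases apart, share another. The windows of ZNF585A and ZNF585B were identical at 73.3% of the 322 columns of their alignment. TTCCCAGA was found in 13 of 30 member promoters (43.3%), against 2.78% of the windows of genes in the table. Among the other zinc finger genes it was present in 12.8% of those on chromosome 19 and in 8.77% of those on other chromosomes. ZNF461 and ZNF567 share a match of TTCCCAGA as well. These letters were looked for only after they had been seen to recur in the printed windows. Their share among the members was thus fixed in part by that choice and was not tested.

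Of the other letters looked for, GCCATNTT was more frequent in member windows than in those of table genes, and the rest were less frequent. These differences were not tested. GCCATNTT, the core bound by YY1, was present in 5 of 30 windows (16.7%, against 8.02% of table genes), CCAAT in 8 (26.7% against 36.5%) and GGGCGG, the letters bound by SP1, in 10 (33.3% against 59.6%). TATAAA and TGACGTCA were found in 0 of 30 windows, against 9.46% and 2.67% of the windows of table genes. The median GC content of the member windows was 61.7%, with a median of 23 CpG pairs, and that of table genes was 63.0% with 23 CpG pairs. A match of letters is a description of the window and not a binding site.

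Most of the cluster was higher in METTL16 KO. Of the 31 genes tested, 26 (83.9%) rose at an adjusted p under 0.05 in limma (Benjamini-Hochberg over all genes tested), against 50.1% of all genes tested, and 0 fell, against 25.6% of all genes. At an unadjusted p under 0.05 27 members were higher (51.1% of all genes) and 0 were lower (26.2% of all genes). The median log2 fold change of the 31 genes was 0.54, where the median of all 11971 genes was 0.16. In 27 of the 31 genes both METTL16 KO libraries lay above both sgNS libraries, as in 56.8% of all genes tested, and in 1 gene they lay below, as in 30.7% of all genes. With a log2 fold change of at least 1 and an unadjusted p under 0.01, the thresholds drawn in the study, 5 members were higher (7.69% of all genes) and 0 were lower (3.75% of all genes).

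**Figure D1:**
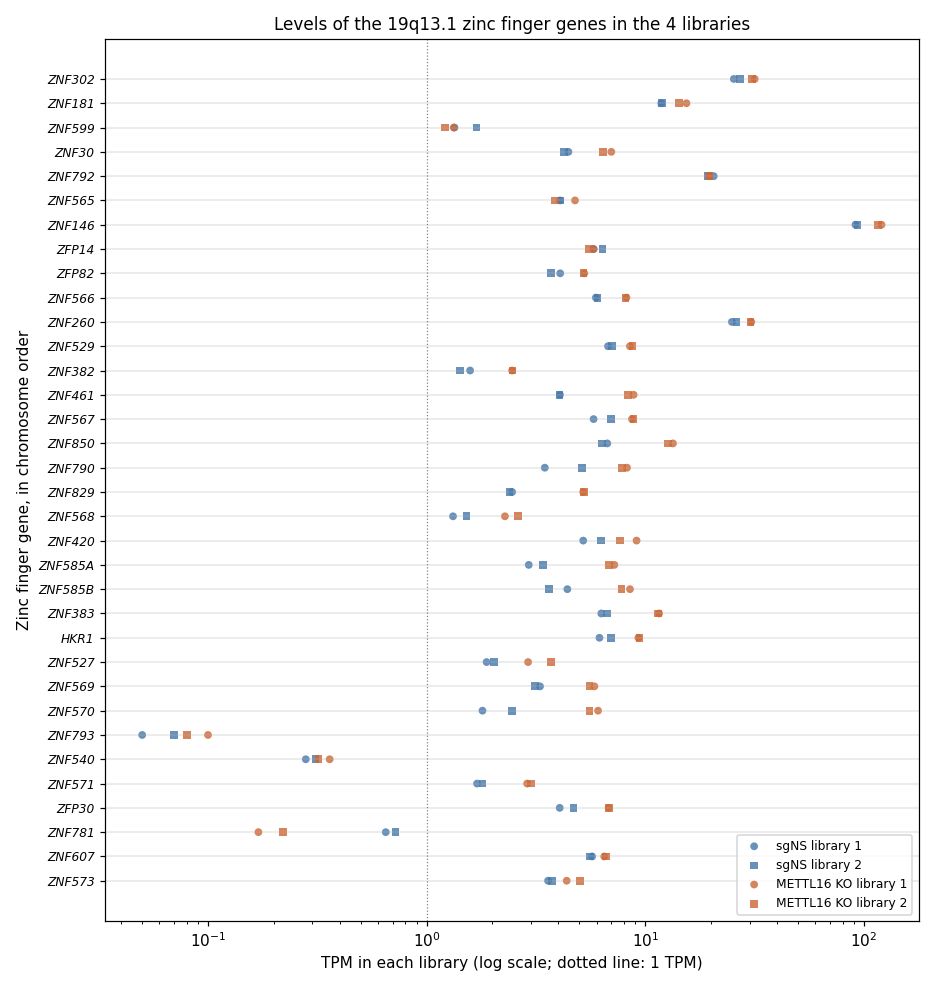
Level of each of the 34 zinc finger genes in TPM (log scale) in the 2 sgNS libraries (blue) and the 2 METTL16 KO libraries (orange), in chromosome order. ZNF146 stands above all others in each library, most members lie between 1 and 10 TPM, and the orange points of most genes lie to the right of the blue ones, while those of ZNF781 lie to the left.

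Most of the cluster was expressed at low levels, as 25 of the 31 tested members had a mean of at most 9.15 TPM, while ZNF302, ZNF260 and ZNF146 stood highest. The median level of the 34 genes was 4.08 and 4.16 TPM in the sgNS libraries and 6.90 and 6.72 TPM in the METTL16 KO libraries. Summed over the 34 genes, the level was 279.9 and 290.5 TPM under sgNS and 389 and 378 TPM upon METTL16 KO, a ratio of means of 1.34. Without ZNF146, which took 30.7% to 32.7% of the sum in each library, the ratio was 1.38. The plot of levels in chromosome order shows the spread over the genes.

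The scale of the values bears on these counts, because TPM is a share of a fixed total and the median of all genes was itself above 0. Under median-ratio scaling, in which the typical gene is held level between libraries, the median of all genes was -0.0016. There 20 members rose (36.4% of all genes did), and ZNF792 and ZFP14 fell (36.5% of all genes did). Quantile normalization gave 18 higher (36.9% of all genes) and 3 lower members (35.5% of all genes), ZNF599 being the third. The median of the members was then 0.38 and 0.34. The 6 genes called as higher before and not after median-ratio scaling were ZNF302, ZNF181, ZFP82, ZNF260, ZNF529 and ZNF573, with log2 fold changes on the deposited scale between 0.25 and 0.42. Quantile normalization also ended the calls of these 6 genes, and those of ZNF382 (0.385, adjusted p 0.056 in limma) and ZNF567 (0.26, adjusted p 0.053).

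ZNF570 had the largest rise. It had 1.80 and 2.45 TPM under sgNS and 6.08 and 5.55 TPM upon METTL16 KO, or 2.13 ± 0.46 against 5.82 ± 0.38 TPM (SD, n = 2 per group). Both METTL16 KO libraries were more than 3 TPM above both sgNS libraries. The log2 fold change was 1.43 (standard error 0.16, 95% interval 1.08 to 1.77; limma, adjusted p 8.8e-06). It lay above 96.4% of all genes tested. With median-ratio scaling ZNF570 was the only member past the fold threshold, at 1.26, where 5.6% of all genes passed it upwards.

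ZNF585A and ZNF585B are neighbouring copies on the minus strand, at chr19:37106734-37172741 and chr19:37181579-37218153, and their transcripts share sequence. ZNF585A had 2.93 and 3.40 TPM under sgNS and 7.22 and 6.83 TPM upon METTL16 KO. ZNF585B had 4.40 and 3.64 TPM under sgNS and 8.51 and 7.78 TPM upon METTL16 KO. Neither gene had overlapping groups. The log2 fold changes were 1.13 (standard error 0.12) and 1.01 (standard error 0.12), and the adjusted p-values in limma were 5.5e-06 and 1.3e-05. Of the stretches of the canonical transcript as long as a read of the study, 7.50% in ZNF585A and 10.4% in ZNF585B were also present in the other gene. How reads from these stretches were divided between the genes is not seen in the deposited values, so the single values are uncertain to that extent, and both genes rose.

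ZNF829 and ZNF461 also passed the fold threshold. ZNF829 had 2.46 and 2.39 TPM under sgNS and 5.20 and 5.23 TPM upon METTL16 KO, and the libraries of each group differed by less than 0.1 TPM. ZNF461 had 4.07 and 4.05 TPM under sgNS and 8.84 and 8.32 TPM upon METTL16 KO. Their log2 fold changes were 1.07 (standard error 0.12) and 1.06 (standard error 0.096), and the adjusted p-values in limma were 1.1e-05 and 2.1e-06. ZNF850, listed at 6.70 and 6.33 TPM against 13.4 and 12.7 TPM, lay just under the fold threshold with a log2 fold change of 0.99 (adjusted p of 9.5e-07 in limma), and ZNF585B just above it.

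**Figure D2:**
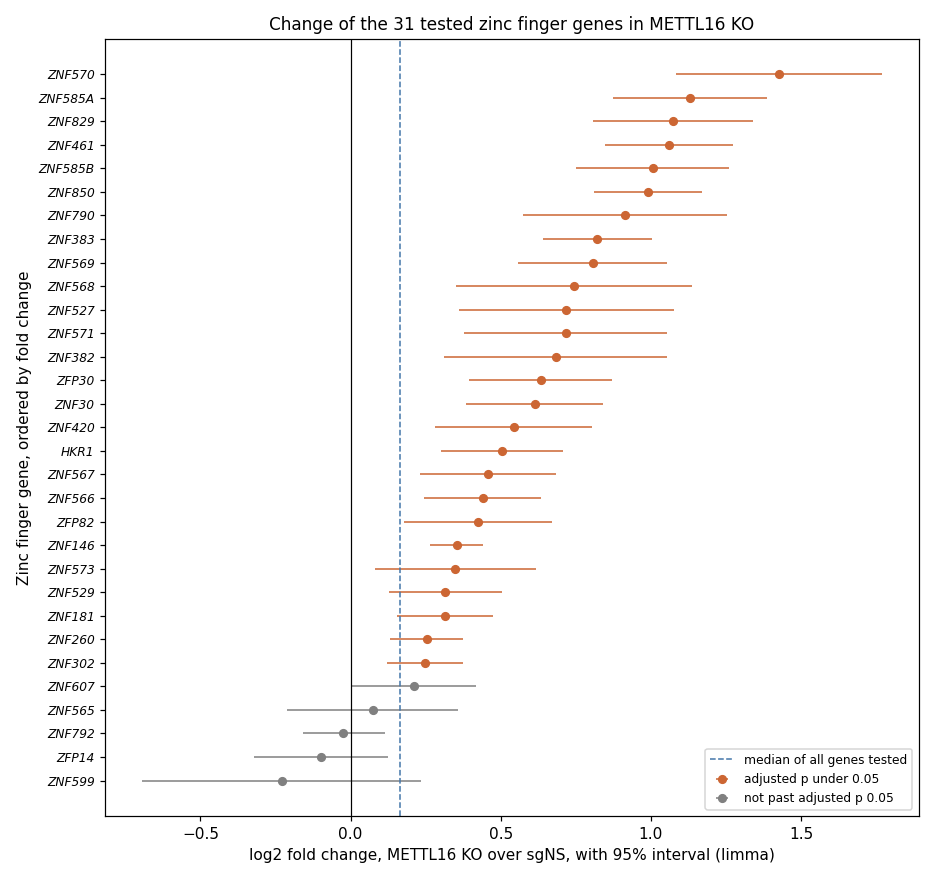
log2 fold change of each of the 31 tested zinc finger genes in METTL16 KO over sgNS, with the 95% interval from limma, ordered by size (orange, adjusted p under 0.05; grey, not past it). The dashed line is the median of all genes tested, 0.16, and the changes run from -0.23 in ZNF599 to 1.43 in ZNF570.

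A further group of 9 genes rose by log2 fold changes between 0.61 and 0.92, in the order ZNF790, ZNF383, ZNF569, ZNF568, ZNF527, ZNF571, ZNF382, ZFP30 and ZNF30. ZNF383 had 6.29 and 6.66 TPM under sgNS and 11.6 and 11.5 TPM upon METTL16 KO, and its log2 fold change of 0.82 had an adjusted p of 4.4e-06 in limma. ZNF568, whose mouse counterpart silences a placental form of Igf2, had 1.32 and 1.52 TPM against 2.28 and 2.61 TPM, with a log2 fold change of 0.74 and adjusted p 0.0028 in limma. ZNF382, a KRAB protein described as a repressor that is silenced in several tumour types, had 1.58 and 1.42 TPM against 2.46 and 2.47 TPM, with a log2 fold change of 0.68 and adjusted p 0.0033. None of these 9 genes had overlapping groups. ZNF790 had the widest spread of the 9 under sgNS, at 3.47 and 5.13 TPM, against 8.25 and 7.85 TPM upon METTL16 KO. Without sgNS replicate 1 its log2 fold change was 0.64, and without sgNS replicate 2 it was 1.19. The 95% intervals of neighbours in this order overlapped, and their differences were not tested.

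The rest of the rising genes changed less. ZNF420, known as Apak, a KRAB protein that holds back p53 by way of TRIM28, had 5.20 and 6.26 TPM under sgNS and 9.12 and 7.66 TPM upon METTL16 KO, with a log2 fold change of 0.54 and adjusted p 0.0015 in limma. HKR1 (ZNF875 in current annotation), found by its likeness to the Krüppel gene of the fly, had 6.17 and 6.98 TPM against 9.29 and 9.40 TPM, with a log2 fold change of 0.50. ZNF567, ZNF566, ZFP82, ZNF573, ZNF529 and ZNF181 had log2 fold changes of 0.46, 0.44, 0.42, 0.35, 0.32 and 0.32. The groups of these genes did not overlap, but ZNF529 no longer passed without METTL16 KO replicate 2 (adjusted p 0.051), nor ZNF573 without that library (0.16) or without sgNS replicate 1 (0.077).

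The most abundant members changed by small factors with narrow intervals. ZNF146, the finger-only protein also called OZF, had 91.4 and 93.5 TPM under sgNS and 120.3 and 116.0 TPM upon METTL16 KO, a log2 fold change of 0.35 (95% interval 0.265 to 0.442, adjusted p of 1.2e-05 in limma). ZNF302 had 25.4 and 27.1 TPM under sgNS and 31.7 and 30.7 TPM upon METTL16 KO, a log2 fold change of 0.25 (95% interval 0.12 to 0.37, adjusted p of 0.0022 in limma). ZNF260, the other finger-only gene named above, had 24.9 and 26.1 TPM under sgNS and 30.5 and 30.3 TPM upon METTL16 KO, a log2 fold change of 0.25 (95% interval 0.13 to 0.37, adjusted p of 0.0015 in limma). All 3 genes were higher in both METTL16 KO libraries. With median-ratio scaling ZNF146 was at 0.19 and still passed, with an adjusted p of 0.0016, while ZNF302 at 0.082 and ZNF260 at 0.088 did not, with adjusted p-values of 0.22 and 0.17 in limma.

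ZNF607, ZNF565, ZNF792, ZFP14 and ZNF599 did not pass an adjusted p of 0.05. ZNF792 had 20.6 and 19.3 TPM under sgNS and 19.6 and 19.7 TPM upon METTL16 KO, with a log2 fold change of -0.024 (95% interval -0.16 to 0.11), and its groups overlapped. ZFP14 had 5.79 and 6.37 TPM against 5.81 and 5.52 TPM, with a log2 fold change of -0.099 (95% interval -0.32 to 0.12). ZNF599 had 1.34 and 1.69 TPM against 1.33 and 1.21 TPM, with a log2 fold change of -0.23 (95% interval -0.69 to 0.23). ZNF792 and ZFP14 are among the genes that stood lower once the shift of the median gene was removed, at -0.19 and -0.26 with median-ratio scaling and adjusted p-values of 0.016 and 0.035 in limma. ZNF565 had 4.07 and 4.09 TPM against 4.77 and 3.87 TPM, and ZNF607 had 5.71 and 5.57 TPM against 6.49 and 6.60 TPM with an adjusted p of 0.061.

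The 3 genes under the minimum level were ZNF793, ZNF540 and ZNF781. ZNF793 had 0.05 and 0.07 TPM under sgNS and 0.1 and 0.08 TPM upon METTL16 KO, and ZNF540 had 0.28 and 0.31 TPM against 0.36 and 0.32 TPM. ZNF781 went the other way, from 0.65 and 0.72 TPM under sgNS to 0.17 and 0.22 TPM upon METTL16 KO. When all 16350 genes above 0 in at least 1 library were tested, ZNF781 fell by 1.42 on the log2 scale (limma, adjusted p 0.0039), and ZNF793 and ZNF540 did not pass. In that test 25 of the 34 members rose, against 39.8% of all genes, and ZNF781 was the 1 member that fell, against 18.2% of all genes. ZNF781 is annotated as a long noncoding RNA in GENCODE release 44 and shares 334 exon bases, on the same strand, with ZFP30, which rose from 4.06 and 4.69 to 6.80 and 6.85 TPM. Of the read-long stretches of its canonical transcript, 7.70% are also present in ZFP30.

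Members that start head to head are given side by side, and the differences within pairs were not tested. By the starts that RefSeq gives there were 5 such pairs, within 1000 bases of each other on opposite strands. Some GENCODE genes of these pairs start elsewhere and lie further apart or overlap. The log2 fold changes were 1.06 in ZNF461 and 0.46 in ZNF567, 1.07 in ZNF829 and 0.74 in ZNF568, and 0.81 in ZNF569 and 1.43 in ZNF570. They were 0.32 in ZNF529 and 0.68 in ZNF382, and 0.073 in ZNF565 and 0.35 in ZNF146. ZNF565 and ZNF146 share 446 exon bases on opposite strands, 11.9% and 10.8% of their exons. The kit marks the strand, but whether the counting used it is not given in the sources used here, so these 2 values may not be separate. The other overlaps of exons between members of opposite strands came to less than 5% of the exons of each gene.

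Along the chromosome the members fell into 2 blocks. The first, chr19:34677639-34964229, holds ZNF302, ZNF181, ZNF599, ZNF30 and ZNF792, of which 3 of 5 rose, at a median log2 change of 0.25. The second, chr19:36182276-37817300, holds the other 29 members from ZNF565 to ZNF573, of which 26 were tested and 23 rose, with a median of 0.66. All 5 members past the fold threshold lie in the second block. A gap of 1218047 bases without a member separates the blocks. Of the 14 genes on the plus strand 12 were tested and 12 rose, with a median of 0.58. Of the 20 genes on the minus strand 19 were tested and 14 rose, with a median of 0.44. Over all genes tested 50.1% rose, and the differences between the blocks and between the strands were not tested.

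Genes of other kinds lie in the gap between the 2 blocks and not among the members of either block. Their middles lie from 333.0 kb (GRAMD1A) to 1474.0 kb (COX7A1) after the start of ZNF302. The members on either side, ZNF792 and ZNF565, have theirs at 282.7 and 1536.6 kb. The table holds 56 of them, of which 30 were tested, and 15 of the 30 rose and 7 (23.3%) fell, near the 50.1% and 25.6% of all genes, around a median log2 fold change of 0.20. HAMP, which encodes the iron hormone hepcidin, rose from 22.8 and 25.6 TPM to 351 and 360 TPM, and DMKN and U2AF1L4 had log2 fold changes of 1.78 and 1.46. HPN, which encodes the serine protease hepsin, fell from 24.7 and 23.9 TPM to 7.15 and 7.73 TPM, and ARHGAP33 and UPK1A fell by 1.29 and 0.94 on the log2 scale. The last of the tested neighbours, CAPNS1, lies before the second block, so that the 29 members there had no tested gene of another kind among them. Beyond the last member, 8 genes were tested within 1 Mb, and 5 rose and 3 fell, with a median of 0.25. Before the first, 6 were tested, and 2 rose and 2 fell, with a median of 0.096. The genes beyond the ends were added after the data had been seen.

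**Figure D3:**
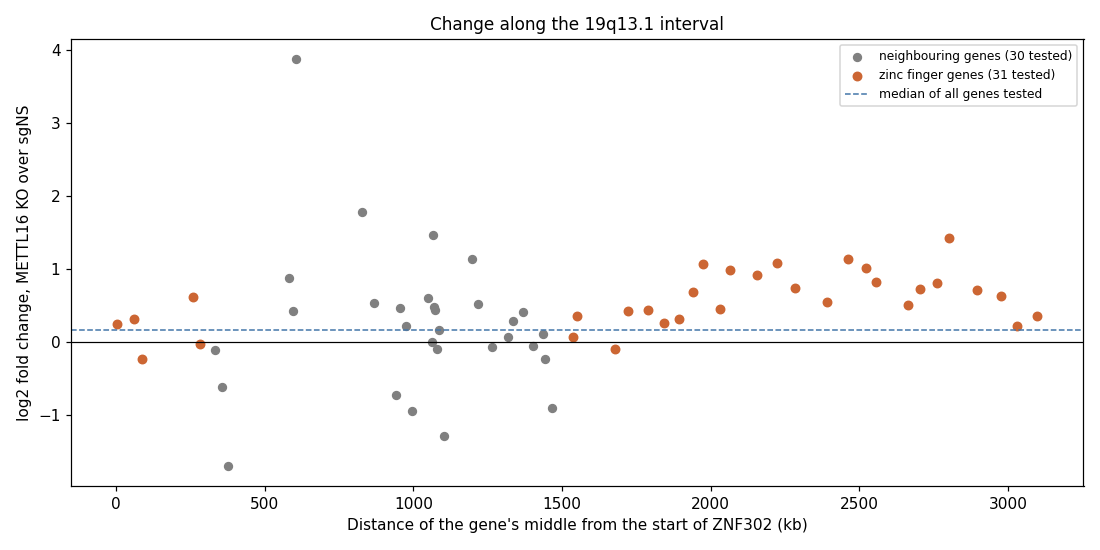
log2 fold change in METTL16 KO over sgNS against the distance of each gene's middle from the start of ZNF302 in kb, for the 31 tested zinc finger genes (orange) and the 30 tested neighbouring genes (grey). The second block, at the right, holds orange points alone, nearly all above the dashed line at 0.16, and the neighbours are scattered from -1.69 to 3.87.

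The members were set beside other zinc finger genes, found by symbols that begin with ZNF, ZFP, ZKSCAN or ZSCAN, followed by digits. Symbols alone were used, so genes of other zinc finger kinds may be among them, and ZNF274 is also counted among the silencing genes below. Of 187 tested on chromosome 19 outside the cluster, 138 (73.8%) rose and 6 (3.21%) fell, around a median log2 fold change of 0.46. Of all genes tested 50.1% rose and 25.6% fell, with a median of 0.16. Of 233 tested on other chromosomes, 145 (62.2%) rose and 23 (9.87%) fell, with a median of 0.33. With median-ratio scaling the medians were 0.38 in the cluster, 0.30 in the rest of chromosome 19 and 0.16 on other chromosomes. Whether the cluster differs from the other zinc finger genes was not tested.

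Genes of the silencing pathway through which KRAB proteins act rose and fell in equal number on the deposited scale. Of 20 listed genes 19 were in the table, and all 19 were tested. Of these 5 rose (26.3%, against 50.1% of all genes) and 5 fell (26.3%, against 25.6%), around a median log2 fold change of 0.045. TRIM28, the scaffold, had 375 and 356 TPM under sgNS and 333 and 321 TPM upon METTL16 KO, a log2 fold change of -0.16 (limma, adjusted p 0.0020). SETDB1, the H3K9 methyltransferase, had 26.4 and 25.5 TPM against 31.2 and 32.4 TPM, and ZNF274, which binds the ends of zinc finger genes, had 38.2 and 37.9 TPM against 46.3 and 45.4 TPM. SETDB1 changed by 0.29 and ZNF274 by 0.27 on the log2 scale, and with median-ratio scaling neither passed (adjusted p 0.053 and 0.063 in limma). PPHLN1, a subunit of the HUSH silencing complex, had 0.31. The largest falls were in UHRF1, which guides maintenance of DNA methylation, from 69.1 and 64.8 TPM to 41.8 and 43.7 TPM, in ATRX, a chromatin remodeller found at zinc finger genes, by 0.40 on the log2 scale, and in CBX3, an HP1 protein, by 0.28. With median-ratio scaling 1 of the 19 genes rose (5.26%, against 36.4% of all genes) and 10 fell (52.6%, against 36.5%). The median was then -0.12, and the difference from all genes was not tested.

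**Figure D4:**
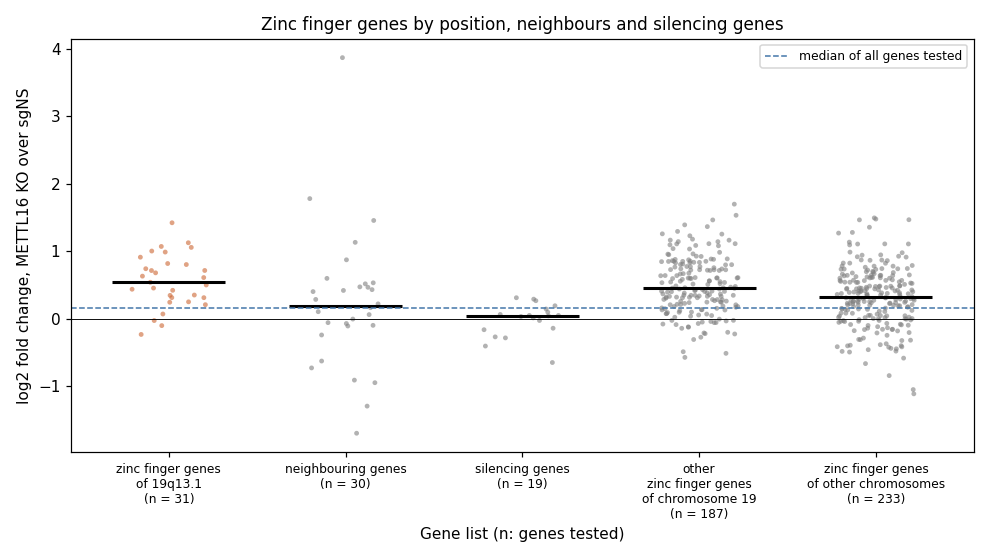
log2 fold change in METTL16 KO over sgNS of each tested gene (points) and the median (black bar) in the 19q13.1 cluster, its neighbours, the silencing genes and the other zinc finger genes. The medians are 0.54, 0.20, 0.045, 0.46 and 0.33 from left to right, and the dashed line is the median of all genes, 0.16.

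The members differ from most genes in level and sequence, and these properties are given beside the counts. The canonical transcripts of the 34 members in GENCODE release 44 have a median length of 4212 bases and a median GC content of 39.5%, against 3293 bases and 47.9% over all genes tested. Among the 2975 tested genes with the lowest GC content, up to 41.6%, the median log2 fold change was 0.14 and 49.1% of the genes rose, and the 22 members among them had a median of 0.59. Among the 2993 genes with the lowest level, up to 9.15 TPM, the median was 0.22 and 43.5% rose, and the 25 members among them had a median of 0.63. Among the 2972 genes with the longest transcripts, from 5173 bases, the median was 0.19 and 52.2% rose, and the 13 members among them had a median of 0.68. Of the 34 transcripts, 27 share no read-long stretch with a transcript of another gene in the table. Those that share more than 1% of theirs are ZNF585A, ZNF585B and ZNF781.

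Letters of the promoter and of the transcript were set beside the changes without a test. The 7 members whose promoters hold CCGGAAGT stood at a median of 1.01 on the log2 scale. Of the 5 members past the fold threshold, which 7.69% of all genes passed upwards, 4 were among them. ZNF599, the lowest of the 31 tested members, was too. The 7 are not separate cases, as ZNF461 and ZNF567 share a match, ZNF829 and ZNF568 share another, and ZNF585A and ZNF585B are copies. The 21 tested members without these letters had a median of 0.44. The 13 members with TTCCCAGA all rose on the deposited scale, where 50.1% of all genes did, with a median of 0.54. Of the 15 tested members without it 11 rose, with a median of 0.50. With median-ratio scaling ZNF302, ZNF181, ZNF260 and ZNF573, which hold these letters, no longer passed, nor did ZFP82 and ZNF529, which lack them. The RefSeq window of ZNF570 holds neither. GENCODE starts this gene further upstream, at 37467585 against 37467772 in RefSeq, and no window was taken from that start. The window of its partner ZNF569 holds TTCCCAGA. UACAGAGAA, the letters in which METTL16 is known to methylate its target MAT2A, was found in 0 of the 34 canonical transcripts of the members and in 3.41% of 18584 canonical transcripts, and no match says only that these letters are not in these transcripts.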

How the data were processed

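RNA-seq of 2 sgNS and 2 METTL16 KO libraries of Huh7 cells was analysed. Per the study's methods, reads were trimmed with Cutadapt, mapped to GRCh38 with STAR and quantified with RSEM, and versions, annotation and strand setting are not given in the sources used here. The labels name both ribosomal RNA depletion and a stranded mRNA kit. The authors deposited 1 TPM value per gene symbol and library. RPKM is the unit in the methods text, yet the columns sum to 1000000 each. TPM keeps no depth.

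log2(TPM + 0.1) was taken for 11971 genes at a mean of 1 TPM or more and fitted with limma 3.58.1 in R 4.3.3 (lmFit, eBayes with trend, no block), with Benjamini-Hochberg adjustment over all genes and 95% intervals from its moderated statistic. Fold changes are on that scale and understate the change of low genes. A two-sided exact permutation test at this size reaches no p below 0.33. The model was checked on simulated data in which few genes changed, whereas most genes tested here were called. Positions and transcripts are those of GENCODE release 44 on GRCh38 (18612 of 18806 symbols matched) and promoters those of RefSeq. Python 3.11.15, pandas 2.3.3 and matplotlib 3.10.9 were used. Every member is accounted for. Values in full were given for the 5 largest rises, members past the fold threshold and the 3 most abundant members, up to 3 genes in each direction were named among neighbouring and silencing genes, and TRIM28, SETDB1 and ZNF274 in any case. Other members named with values were chosen after these were seen. Protein sequences were not used here. Members and lists were chosen with earlier results of these data known. Alternatives were pseudocounts of 1 and 0.01, 2 other filters, 2 scalings, a replicate block, no trend, no moderation and each library left out.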

Additional observations from a re-analysis of the deposited data

How the results depend on the processing

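With the replicate number as a block, 26 members rose and 0 fell, the median stayed at 0.54, and no count changed by more than 1.5 times. Same-numbered libraries had deviations from their group means with a correlation of -0.044 across genes, so the numbers were not taken as pairs. METTL16 was lower under each alternative, from -0.69 to -0.45. The cause of the changes below was not tested, except that a minimum mean of 5 TPM leaves fewer genes to test and all genes above 0 give more.

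A minimum mean of 5 TPM gave 17 of 20 members higher (52.1% of all genes tested) in place of 26 of 31, 3 (5.65% of all genes) past the fold threshold in place of 5, and 4 neighbours lower in place of 7. The unmoderated model gave 17 of 31 members higher (33.8% of all genes), 3 past the fold threshold (5.59%), 4 neighbours lower and 3 silencing genes in each direction. A pseudocount of 1 left 1 member past the fold threshold (5.45% of all genes). Testing all genes above 0 gave 1 member lower, also past the fold threshold, and 24 neighbours higher with a median of 0.41. Median-ratio scaling gave 2 members lower (36.5% of all genes), 1 higher past the fold threshold (5.6%) and a median of 0.38. The neighbours then had a median of 0.030. The silencing genes had 1 higher (36.4% of all genes), 10 lower (36.5%) and a median of -0.12. Quantile normalization gave 3 members lower (35.5% of all genes), 1 higher past the fold threshold (4.86%) and a median of 0.34. The neighbours then had 11 lower and a median of 0.055. The silencing genes had 2 higher (36.9% of all genes), 8 lower (35.5%) and a median of -0.095.

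With each library left out in turn, the median of the members was 0.50 to 0.59. The neighbours had a median of 0.14 to 0.24. The silencing genes had 3 to 6 higher, 4 to 5 lower and a median of 0.017 to 0.055, the 3 being found without METTL16 KO replicate 1. The lone library of a group was then assumed to vary like the others. Over the 31 tested members and these alternatives, 353 of 392 values kept their direction and side of the threshold, 28 no longer passed and 7 newly passed. The other 4 changed sign without passing in either case. ZNF565 was at -0.089 with median-ratio scaling, -0.145 with quantile normalization and from -0.074 (without METTL16 KO replicate 1) to 0.22 (without METTL16 KO replicate 2) with a library left out, and ZNF792 from -0.067 (without sgNS replicate 2) to 0.020 (without sgNS replicate 1).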
